A study of Mus musculus with 8 samples.

Results

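The clustered replication-dependent histone genes encode the linker histone H1 and the core histones H2A, H2B, H3 and H4 that package newly copied DNA. They were taken as the protein-coding genes of the deposited table whose symbols belong to the H1f1 to H1f5, H2ac, H2bc, H3c and H4c series, which gave 63 of 55681 genes: 5 of H1, 17 of H2A, 17 of H2B, 12 of H3 and 12 of H4. RNA of the whole small intestine of C57BL6J-background mouse embryos at E15.5 was sequenced, with 4 libraries labelled cKO and 4 labelled control. The cKO embryos had the genotype Slmapfl/fl with a Cre transgene, written Derom-Cre in one label and Dermo-Cre in another. The control embryos were Slmapfl/fl without a Cre in their labels, so both groups carried floxed Slmap. The driver, Dermo1 (now Twist2), is active in mesenchyme, while the libraries also hold epithelium, nerve, vessel and blood cells. The series asks which transcripts differ in a gut that stays short after the deletion.

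These genes are transcribed mainly in S phase, when DNA is copied and new histones are needed. Their mRNAs usually end not in a poly(A) tail but in a short stem-loop, which the protein SLBP binds and behind which the U7 snRNP directs cleavage. Some of the genes can also be read through to a downstream poly(A) site, as is known for differentiated cells. In a tissue the level of these mRNAs is therefore read as a sign of cycling cells, provided that the library method captures RNAs without a tail. The labels name the NEBNext Ultra kit but not whether poly(A) RNA was selected.

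The stem-loop is the sequence feature that defines these mRNAs, so that of 4 of the genes is printed here from the GENCODE M21 transcripts (GRCm38), with the 16 letters of the stem-loop in capitals and up to 5 letters on each side.

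H1f2: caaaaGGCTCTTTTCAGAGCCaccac
H2ac23: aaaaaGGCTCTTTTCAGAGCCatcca
H3c3: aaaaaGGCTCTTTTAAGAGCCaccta
H4c9: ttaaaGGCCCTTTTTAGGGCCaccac

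A stem-loop was searched as 6 exactly paired letters opening with GG around a 4-letter loop opening with T. A match was found in at least 1 transcript of 42 of the 63 genes, in 8 spellings. The spelling in H1f2 and H2ac23 was the commonest, with 24 genes. The one in H4c9 occurred in 2 genes. A further 15 models end at the stop codon, and so hold no 3′ sequence to search. The remaining 6 models, H2bc4 and H2bc21 among them, run on past the stop codon and hold no match.

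The promoters were compared because the families are known to use different elements beside a shared cell-cycle control. RefSeq promoters (GRCm38.p6, 300 bases around each start) matched 57 of the 63 genes. The 3 shown are those of H4c9 and H1f2, the most abundant H4 and H1 genes here, and of H2bc14, a low gene taken after its values were seen. Capitals mark the TATA box motif TATAAA, the CCAAT motif of the factor NF-Y, the octamer ATTTGCAT and the H1 box motif AAACACA, each searched on both strands, with no overlap between the marked matches.

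H4c9, chr13:22041313-22041612, minus strand: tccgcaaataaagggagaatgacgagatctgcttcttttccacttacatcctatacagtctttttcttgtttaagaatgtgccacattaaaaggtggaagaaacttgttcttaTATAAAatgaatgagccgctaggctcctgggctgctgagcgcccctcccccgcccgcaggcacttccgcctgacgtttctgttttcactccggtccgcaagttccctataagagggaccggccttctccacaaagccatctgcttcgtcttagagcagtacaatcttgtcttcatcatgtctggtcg
H1f2, chr13:23738557-23738856, plus strand: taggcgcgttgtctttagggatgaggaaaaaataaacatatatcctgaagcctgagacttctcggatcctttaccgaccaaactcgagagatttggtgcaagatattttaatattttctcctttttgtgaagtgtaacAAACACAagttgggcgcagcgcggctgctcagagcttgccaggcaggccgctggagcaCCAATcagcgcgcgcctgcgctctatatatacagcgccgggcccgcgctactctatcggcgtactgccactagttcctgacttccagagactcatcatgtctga
H2bc14, chr13:21721794-21722093, plus strand: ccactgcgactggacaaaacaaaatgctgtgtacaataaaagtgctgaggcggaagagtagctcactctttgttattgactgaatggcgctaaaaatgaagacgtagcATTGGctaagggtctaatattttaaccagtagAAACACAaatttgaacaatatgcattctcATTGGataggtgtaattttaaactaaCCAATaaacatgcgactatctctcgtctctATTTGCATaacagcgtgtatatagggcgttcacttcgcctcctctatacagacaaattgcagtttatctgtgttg

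CCAAT was present in all 5 H1, 17 H2A, 14 H2B and 10 H3 promoters matched, and in 3 of 11 H4 promoters. Over all 57 it stood in 86.0%, against 37.9% of 27025 mouse promoters. The octamer was found in 6 of 17 H2A and 6 of 14 H2B promoters and in 0 of the H1, H3 and H4 promoters, against 1.75% of all promoters. AAACACA stood in 4 of 5 H1, 2 of 17 H2A and 2 of 14 H2B promoters and in 0 of the H3 and H4 promoters, against 7.14% of all. TATAAA stood in 59.6% of the histone promoters and 14.2% of all. A match was counted at any position and on either strand, and describes the letters in this window only.

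The libraries held 15663837 to 17806397 reads, recovered from the deposited values. Controls 3 and 4 stood apart, with 25832 and 25934 genes seen, against 23883 to 24071 in the other 6 libraries. Slmap lay at 25.5, 23.5, 26.5 and 26.3 FPKM (fragments per kilobase of gene, scaled to the library) in cKO 1 to 4, and at 23.6, 23.3, 25.4 and 24.2 FPKM in controls 1 to 4. The libraries labelled cKO thus did not show less Slmap (exact permutation p = 0.143, 2-sided, smallest possible 0.0286), a check that the deposited gene totals cannot take to the deleted exons, so every direction below follows the labels. Over the 14220 genes tested, limma put 2 below an adjusted p of 0.05, both lower in cKO libraries. Intestinal epithelium markers (8 of 8 tested) summed to 1029 to 1388 FPKM in cKO libraries and 932 to 1334 FPKM in control libraries, and gut mesenchyme markers (6 of 7 tested) to 452 to 777 and 511 to 889 FPKM. Mesothelium markers, of which Krt19 is also on the epithelium list, summed to 174 to 202 and 179 to 251 FPKM. Smooth muscle markers summed to 1080 to 1471 and 1204 to 1725 FPKM. On the lower side at an unadjusted p under 0.05, beside 9.87% of all genes, were 4 of 5 mesothelium, 2 of 6 smooth muscle and 2 of 4 macrophage markers. The macrophage markers summed to 27.8 to 37.8 FPKM in cKO libraries and 34.7 to 43.5 FPKM in control libraries. Pancreas markers (19.5 to 115 and 58.2 to 92.9 FPKM) and erythroid markers (510 to 1092 and 355 to 1036 FPKM) varied widely within groups, and the part of cell makeup in the histone values was not tested. In bulk tissue, fewer cells of a type and less RNA per cell cannot be told apart.

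Few reads were assigned to the clustered histone genes in all 8 libraries. The 63 genes together took 72.3, 64.4, 70.3 and 61.7 RPM (reads per 1000000 recovered reads of the library) in cKO 1 to 4, and 75.8, 79.96, 84.0 and 78.7 in controls 1 to 4. Each cKO library lay below each control library, with means of 67.2 ± 4.99 and 79.6 ± 3.42 RPM (SD, n = 4 each). Without H2bc4, H4c9 and H1f2 the groups overlapped, at 31.1 ± 2.05 RPM in cKO libraries and 32.8 ± 3.31 RPM in control libraries (log2 ratio -0.0768). It depended on the scaling as well: per 1000000 of the library totals that the deposited FPKM imply, the groups overlapped. Over all 63 genes the log2 ratio was -0.25 on the first scale and -0.17 on the second. The first scale moved genes in general. Scaled by summed reads, the 14220 tested genes had a median log2 difference of -0.061 in limma, against -0.0016 on the deposited FPKM. At an unadjusted p under 0.05, 2208 of them were then lower in cKO libraries and 1184 higher, against 1403 and 1790. In cKO 1 the sum was 1179 reads, with an exact 95% interval of 68.3 to 76.6 RPM for counting error only. The 16 genes of the replacement histone list, most of which encode variants made outside S phase from mRNAs with a poly(A) tail, took 2302 to 2877 RPM in cKO libraries and 2302 to 2767 in control libraries.

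**Figure D1:**
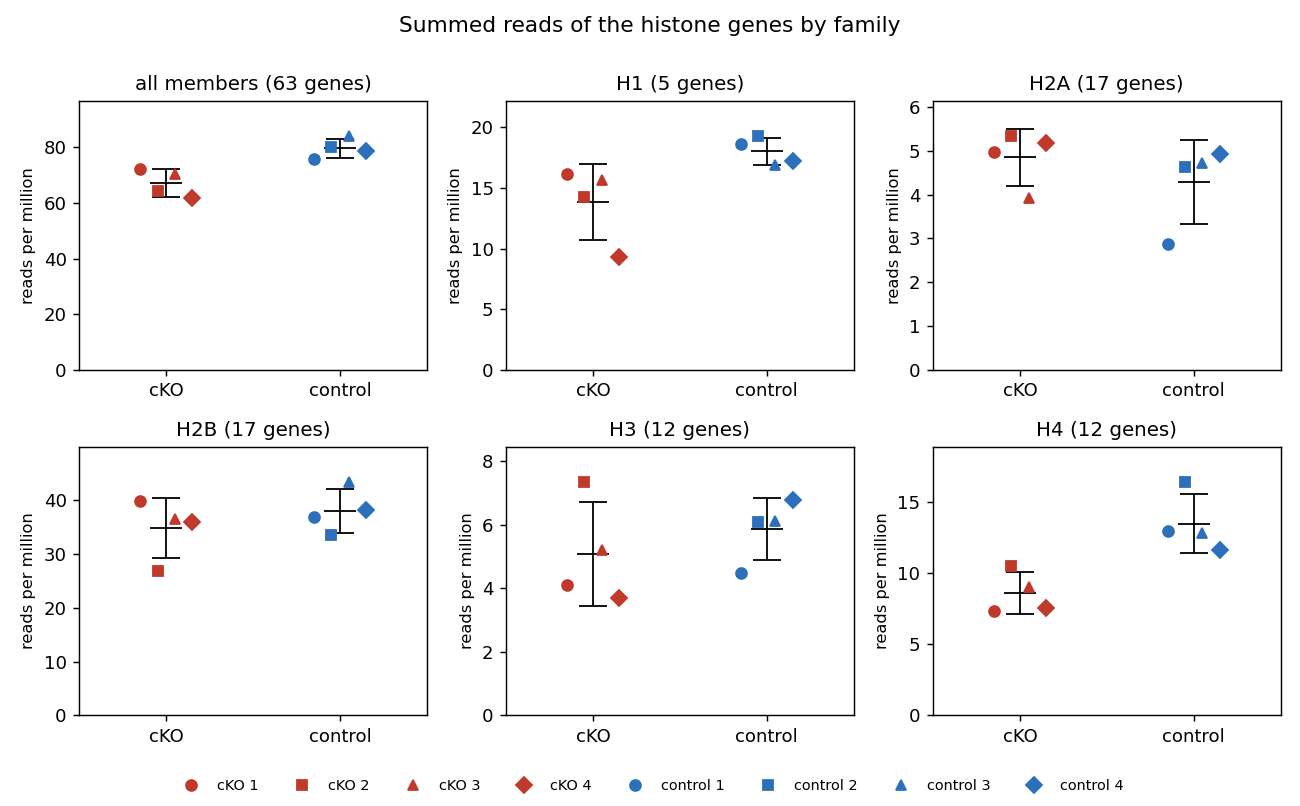
Summed RPM (reads per 1000000) of all 63 clustered histone genes and of each family (vertical axes from 0), with cKO libraries left and control libraries right; bars give the mean and SD of 4 libraries. The cKO libraries lie below all control libraries for the total, H1 and H4, and overlap them for H2A, H2B and H3.

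Most of the genes were near the limit of detection. No read was seen in any library for 7 genes: H2ac18, H2ac19, H3c13, H3c14 and H2bc18 of the chromosome 3 cluster, and H2ac1 and H2bc1, which are known from testis. Over the 133870973 reads of all libraries a count of 0 allows up to 0.0224 RPM assigned to a gene, which is no limit on its expression. H2ac19 and H3c14 have 0.0% of their windows to themselves and H2ac18 has 10.6%, and all 5 chromosome 3 genes overlap lncRNA genes, of which Gm20632 (over H2ac19) had 159 reads. A further 46 genes had reads but a mean under 1 FPKM, and 10 reached a mean of 1 FPKM and were tested. H3c8, just under that limit, averaged 0.988 FPKM, and H2bc8, just above it, averaged 1.52 FPKM.

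**Figure D2:**
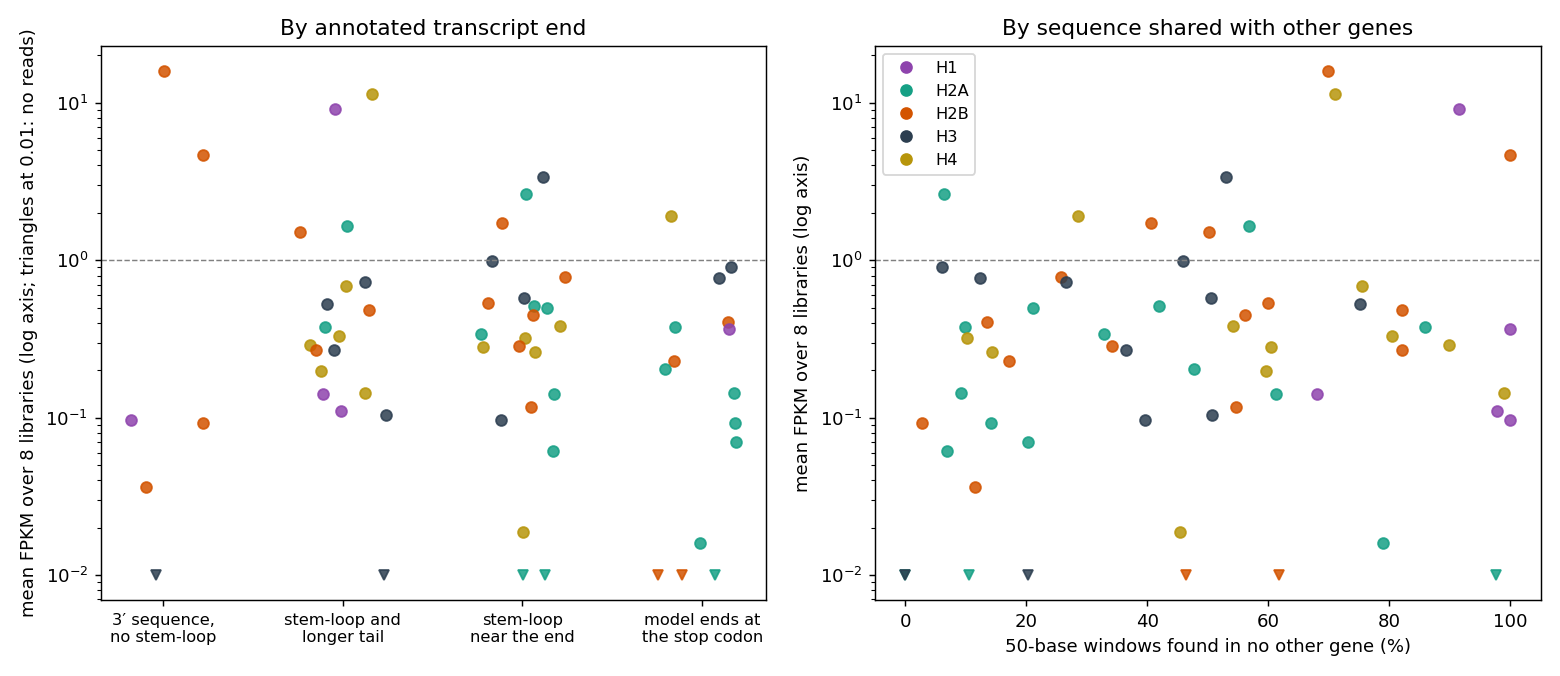
Mean FPKM over the 8 libraries (log axis) of each clustered histone gene by the end of its annotated transcript, left, and by the share of its 50-base windows found in no other gene, right; colours give the family and triangles the 7 genes without reads. The 4 highest genes have at least 69.9% of their windows to themselves, and H2bc4 and H2bc21 have long models without a stem-loop.

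Models that extend past the usual stem-loop end held most of the reads. The 6 genes with 3′ sequence and no stem-loop had 42.7% of all histone reads, and the 19 with a stem-loop followed by over 100 bases had 43.9%. The 23 genes whose model stops within 100 bases of the stem-loop had 10.4%, and the 15 that stop at the stop codon had 3.01%. These shares rest largely on H2bc4, H2bc21, H1f2 and H4c9, with 2481, 1653, 1927 and 1114 of 9788 reads. The classes, in the order given, also differ in median length, at 1585.5, 1249, 485 and 393 bases. Their median genes lay at 0.0949, 0.331, 0.339 and 0.204 FPKM, so the medians did not follow the shares of reads. Sequence is shared between copies, and how the authors treated reads that match several genes is not stated in the sources used here. The 21 genes with over 60% of their windows to themselves took 82.4% of the reads, and the 16 with under 20% took 4.12%.

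H1 binds the linker DNA between nucleosomes, and H1f2 (ENSMUSG00000036181, GRCm39 chr13:23922791-23924350) was its main gene. It lay at 9.70, 8.06, 9.43 and 5.71 FPKM in cKO 1 to 4, and at 10.8, 11.6, 8.997 and 8.94 FPKM in controls 1 to 4. The groups overlapped, cKO 4 being the lowest library. The log2 difference was -0.28 ± 0.16 (SE) with a limma adjusted p of 0.320. It was -0.14 without cKO 4, -0.15 with the GC and length correction and -0.43 without controls 3 and 4. The 5 H1 genes together took 16.1, 14.3, 15.7 and 9.27 RPM in cKO 1 to 4, and 18.7, 19.3, 16.9 and 17.2 in controls 1 to 4. These sums did not overlap, but did so on the implied totals. H1f1, H1f3, H1f4 and H1f5, the other linker genes, averaged 0.0972 to 0.363 FPKM.

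H4 pairs with H3 at the core of the nucleosome, and its genes had the lowest cKO to control ratio of summed reads among the 5 families, at 0.639. H4c9 (ENSMUSG00000060639, GRCm39 chr13:22224806-22225532), whose stem-loop is printed above, lay at 7.92, 11.2, 10.03 and 8.36 FPKM in cKO 1 to 4. In controls 1 to 4 it lay at 13.2, 16.9, 12.0 and 11.1 FPKM. The values overlapped only between cKO 2 and control 4, and 3 of 4 cKO libraries lay below all controls. The log2 difference was -0.46 ± 0.14 (SE), a ratio of 0.729 with a 95% interval of 0.580 to 0.916 on the FPKM + 1 scale, and it did not pass the limma test (adjusted p = 0.122). With the GC and length correction the log2 difference was -0.32 (limma adjusted p = 0.426). With array quality weights, which give cKO 2 a weight of 0.329, H4c9 passed at a limma adjusted p of 0.0280. In that fit 7.24% of all genes were called lower. Over all alternatives the adjusted p ranged from 0.0280 to 0.426.

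The 12 H4 genes together took 7.30, 10.5, 8.99 and 7.56 RPM in cKO 1 to 4, and 12.9, 16.4, 12.8 and 11.6 in controls 1 to 4. The groups did not overlap on either scale. The log2 ratio was -0.65 on the first scale, and -0.91 to -0.54 over 13 alternatives. H4c9 held most of these reads, and without it the other 11 genes took 1.59 to 2.25 RPM in cKO libraries and 3.06 to 4.13 in control libraries. H4c12 (ENSMUSG00000064288) ends at its stop codon and rested on 1 to 20 reads. It lay at 0.203, 1.24, 1.52 and 2.60 FPKM in cKO 1 to 4, against 1.72, 1.60, 3.75 and 2.72 FPKM in controls 1 to 4, with overlap (log2 difference -0.59 ± 0.33 SE, limma adjusted p = 0.323). The difference was -0.29 without cKO 1, -0.26 without controls 3 and 4 and -0.15 with the GC and length correction, and -1.06 with a pseudocount of 0.1 or voom. Of the 10 H4 genes with reads under 1 FPKM, 8 had a lower mean in cKO libraries, beside 60.2% of all genes with reads under 1 FPKM. The same counts were 2 of 4 for H1, 6 of 12 for H2A, 8 of 11 for H2B and 7 of 9 for H3. H4c4, named after its values were seen, had 2, 4, 3 and 0 reads in cKO 1 to 4, and 6, 16, 4 and 9 in controls 1 to 4.

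H2B, with H2A, forms the outer dimers of the nucleosome, and H2B genes gave 49.6% of all histone reads. H2bc4 (ENSMUSG00000018102, GRCm39 chr13:23868182-23876891) had the highest mean of the 63 genes, at 18.2, 8.29, 17.2 and 15.0 FPKM in cKO 1 to 4. It lay at 18.1, 14.9, 18.6 and 17.0 FPKM in controls 1 to 4. Only cKO 2 lay below all controls; the log2 difference was -0.26 ± 0.21 (SE, limma adjusted p = 0.507), and -0.03 without cKO 2. H2bc21 (ENSMUSG00000068854, GRCm39 chr3:96128435-96131054) ran the other way. It lay at 5.48, 4.90, 4.62 and 5.76 FPKM in cKO 1 to 4, and at 3.62, 3.84, 4.62 and 4.37 FPKM in controls 1 to 4. All but cKO 3 lay above every control, and the log2 difference of 0.28 ± 0.095 (SE) had a limma adjusted p of 0.144. With the GC and length correction it was 0.18.

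The other tested H2B genes, H2bc11 and H2bc8, overlapped between the groups. H2bc11 (ENSMUSG00000069300) lay at 1.37, 0.838, 0.640 and 2.25 FPKM in cKO 1 to 4, and at 2.96, 2.97, 1.64 and 1.22 FPKM in controls 1 to 4 (limma adjusted p = 0.299). Its high controls were 1 and 2 and its low controls 3 and 4, and the log2 difference was -0.50, -0.85 without controls 3 and 4 and -0.17 with the GC and length correction. H2bc8 (ENSMUSG00000058385) averaged 1.39 ± 0.196 FPKM in cKO libraries and 1.65 ± 0.253 in control libraries (SD, n = 4 each, limma adjusted p = 0.474). H2bc14, whose promoter is printed above, had 2, 3, 2 and 3 reads in cKO 1 to 4, and 5, 4, 7 and 6 in controls 1 to 4, without overlap in FPKM. The summed H2B reads overlapped, at 26.9 to 39.8 RPM in cKO libraries and 33.6 to 43.4 in control libraries.

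H2A pairs with H2B, and its 2 tested genes had higher means in cKO libraries than in control libraries. H2ac23 (ENSMUSG00000094248, GRCm39 chr13:21994635-21995114) lay at 3.30, 2.54, 3.09 and 3.74 FPKM in cKO 1 to 4, and at 1.61, 2.61, 1.95 and 2.24 FPKM in controls 1 to 4. The groups overlapped only between cKO 2 and control 2. The log2 difference was 0.43 ± 0.13 (SE) with a limma adjusted p of 0.112. It passed with array quality weights (adjusted p = 0.0365) and without cKO 2 (adjusted p = 0.0482), fits that called 8.3% and 5.57% of all genes higher (and 7.24% and 4.15% lower), and not in any other alternative (range 0.0365 to 0.369). With the GC and length correction the difference was 0.81 (adjusted p = 0.258). The gene rested on 13 to 31 reads a library, and only 6.50% of its windows are found in no other gene.

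H2ac8 (ENSMUSG00000069272) lay at 1.98, 1.97, 1.18 and 2.06 FPKM in cKO 1 to 4, and at 1.02, 1.42, 1.66 and 2.01 FPKM in controls 1 to 4 (limma adjusted p = 0.631), with cKO 3 low among its group. The log2 difference was 0.15, from 0.04 without control 1 to 0.26 without cKO 3, and 0.33 without controls 3 and 4. The H2A sums overlapped, at 3.91 to 5.34 RPM in cKO libraries and 2.86 to 4.92 in control libraries. H2ac12, named after its values were seen, had 1, 2, 1 and 2 reads in cKO 1 to 4, and 0, 0, 1 and 1 in controls 1 to 4.

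H3 carries many of the marks of active and silent chromatin, and only H3c3 (ENSMUSG00000069310) passed the filter. It lay at 2.01, 5.63, 3.29 and 1.84 FPKM in cKO 1 to 4, and at 2.84, 4.37, 3.34 and 3.78 FPKM in controls 1 to 4. The cKO libraries held both the highest and the lowest values (log2 difference -0.20 ± 0.26 SE, limma adjusted p = 0.679). The difference was -0.04 without cKO 4, -0.07 without cKO 1, -0.12 without control 2 and -0.45 without cKO 2. The H3 sums overlapped, at 3.70 to 7.36 RPM in cKO libraries and 4.48 to 6.78 in control libraries.

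**Figure D3:**
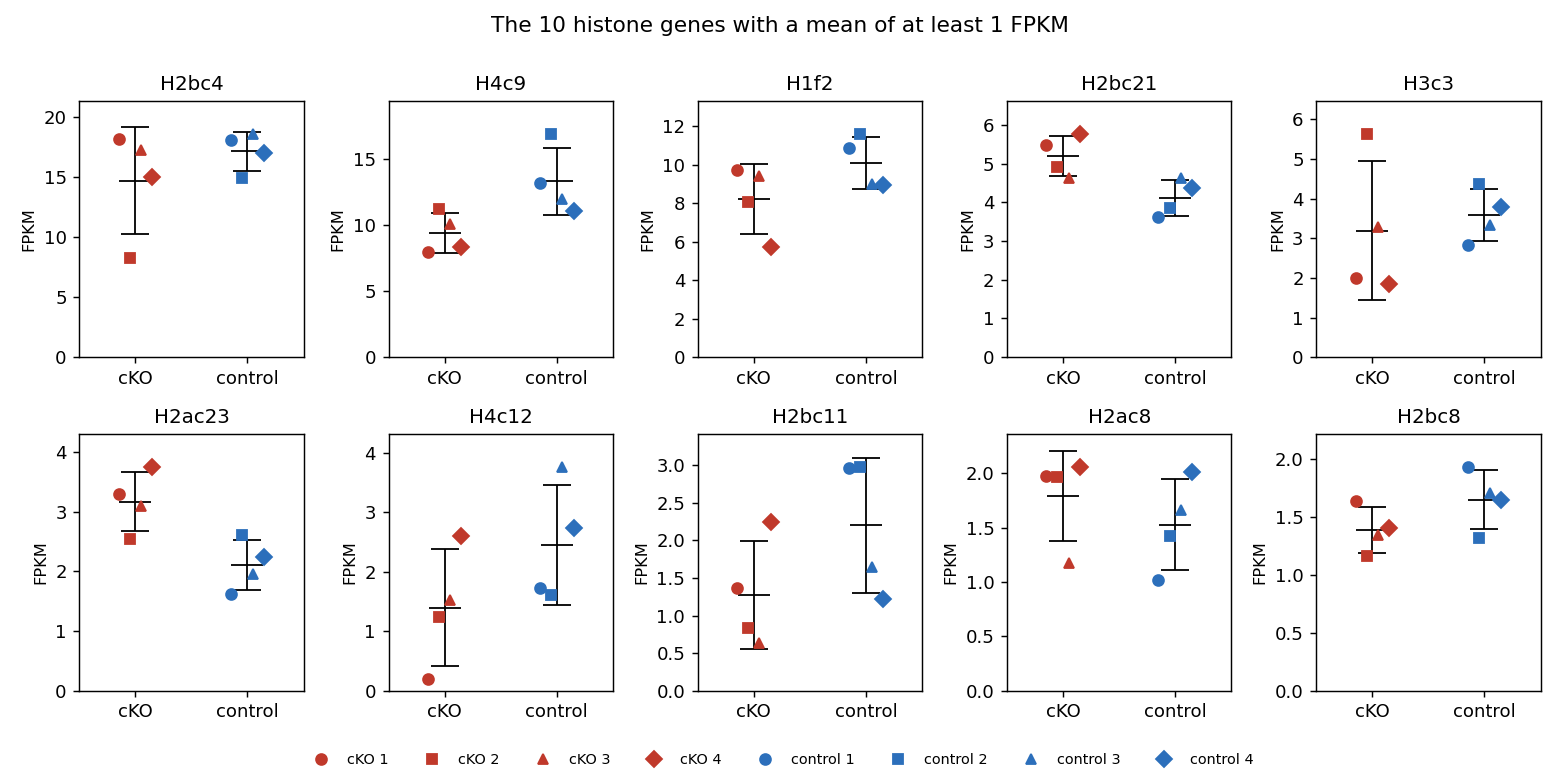
FPKM in each library (vertical axes from 0) of the 10 tested clustered histone genes, with cKO libraries left and control libraries right; bars give the mean and SD of 4 libraries. All 10 genes overlap between the groups, H4c9, H2bc21 and H2ac23 by 1 pair of libraries each.

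The groups did not overlap in 0 of the 10 tested genes, where they did not for 9.61% of all tested genes on the higher side and 5.75% on the lower. Of the 10, 0 passed limma at an adjusted p under 0.05, beside 0.0% of all genes called on the higher side and 0.0141% on the lower. At an unadjusted p under 0.05, H2bc21 and H2ac23 lay on the higher side and H4c9 on the lower, beside 12.6% of all genes higher and 9.87% lower. The log2 difference was above 0 for 3 genes and below 0 for 7, with a median of -0.23 against -0.0016 for all tested genes. After a correction of each library for GC content and gene length, 5 were above 0 and 5 below, with a median of -0.07. Among the 46 low genes with reads, 31 had a lower and 15 a higher mean in cKO libraries, beside 60.2% and 39.8% of all genes with reads under 1 FPKM. Groups did not overlap for 2 of these, both lower (H2bc14 and H4c4), and 1 higher (H2ac12), where 1.69% of genes with reads under 1 FPKM were lower and 0.505% higher. In RPM the groups of H2ac12 overlapped, at 0.0584 in cKO 3 and 0.0638 in control 3.

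Small non-coding RNAs, most of which lack a poly(A) tail, ordered the libraries in another way. Genes of snRNA, snoRNA and scaRNA took 66.5, 72.1, 77.3 and 92.7 RPM in cKO 1 to 4, and 56.2, 51.8, 148 and 131 in controls 1 to 4. Controls 3 and 4 were highest and controls 1 and 2 lowest. Mitochondrial rRNA genes gave 748 to 849 RPM in cKO libraries and 477 to 1064 in control libraries, with the same controls at the extremes. Other rRNA genes took 1223, 2787, 1423 and 2373 RPM in cKO 1 to 4, and 2723, 2018, 2528 and 2802 in controls 1 to 4. There controls 3 and 4 did not stand apart from controls 1 and 2.

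**Figure D4:**
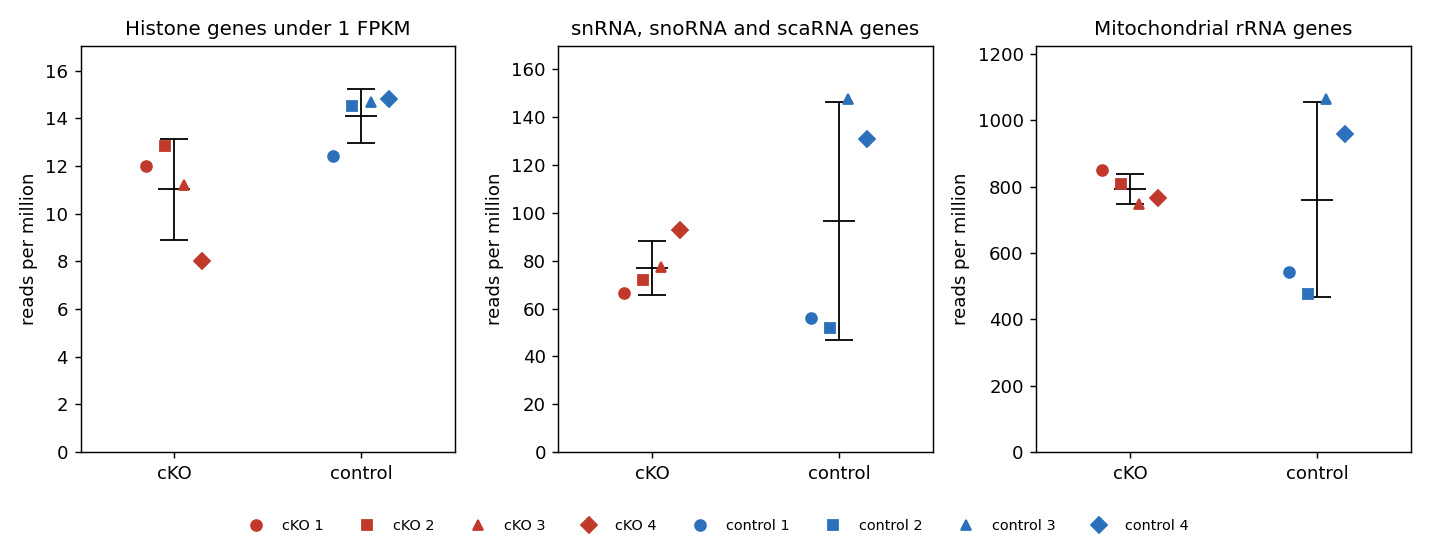
RPM (reads per 1000000, vertical axes from 0) of the 53 histone genes with a mean under 1 FPKM, of snRNA, snoRNA and scaRNA genes and of mitochondrial rRNA genes, with cKO libraries left and control libraries right; bars give the mean and SD of 4 libraries. Controls 3 and 4 are highest for the small and mitochondrial RNAs, while the histone sums of controls 2, 3 and 4 lie close together.

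The replacement histone list is the nearest comparison. Most of its genes encode variants made outside S phase, but H2aw and H2bu2 belong to another cluster of replication-dependent genes, H2ax mRNA is known with both kinds of 3′ end, and Cenpa is made mainly in G2. Of 13 tested, 0 passed limma, 5 lay above 0 and 8 below, and the median log2 difference was -0.10 (0.07 after the GC and length correction). H3f3b, which encodes H3.3, lay at 237, 254, 232 and 214 FPKM in cKO 1 to 4, and at 230, 227, 153 and 168 FPKM in controls 1 to 4 (limma adjusted p = 0.287). Its low values were those of controls 3 and 4, and the log2 difference was 0.29 with and 0.0335 without them. Cenpa, the centromeric H3, averaged 13.7 ± 1.59 FPKM in cKO libraries and 16.1 ± 0.704 FPKM in control libraries (SD, n = 4 each, limma adjusted p = 0.185, 0.0407 without cKO 2 and 0.0407 to 0.400 over the alternatives). H2az1, the transcription-start variant of H2A, averaged 172 ± 18.4 FPKM in cKO libraries and 186 ± 13.7 FPKM in control libraries (limma adjusted p = 0.548). H2ax, H1f0, H1f10, H3f3a, Macroh2a1, Macroh2a2 and H2bu2 had differences whose sign turned with the processing, with limma adjusted p of 0.410 to 0.998. H2aj, H2aw and H2az2 lay at -0.25, -0.22 and -0.09 (log2), with limma adjusted p of 0.228, 0.436 and 0.561.

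**Figure D5:**
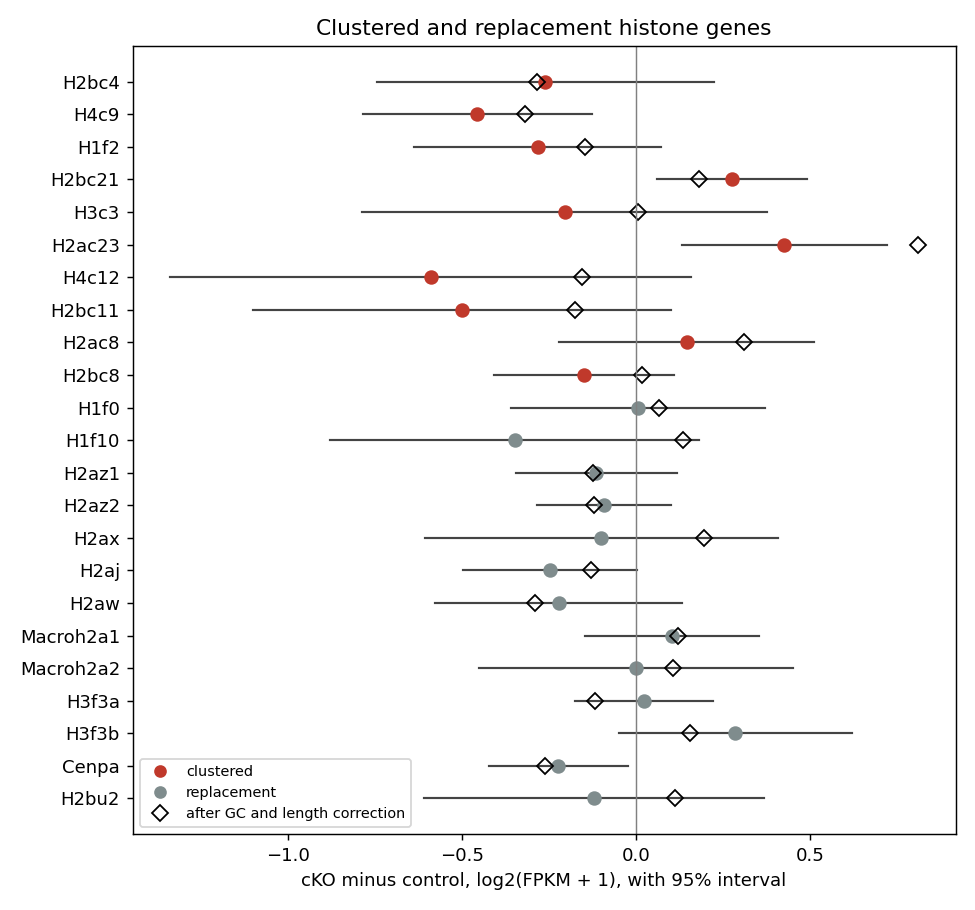
Log2 difference of cKO minus control libraries on the FPKM + 1 scale (horizontal axis) with its 95% interval, for the 10 tested clustered histone genes (red) and the 13 tested genes of the replacement histone list (grey); open diamonds give the value after GC and length correction. H3c3 and H2bc8 cross 0 with the correction, and H2ac23 goes to 0.81.

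Genes that act on histone mRNAs were examined next, and 0 passed limma at an adjusted p under 0.05. Their counts at an unadjusted p under 0.05 stand beside 12.6% of all tested genes on the higher side and 9.87% on the lower. Of 19 tested 3′ processing genes, 9 had an unadjusted p under 0.05 on the higher side and 1 on the lower, with a median log2 difference of 0.17 (0.11 without controls 3 and 4 and 0.14 after the GC and length correction). Casp8ap2 (FLASH), which joins the U7 snRNP at the histone pre-mRNA, lay at 11.2, 11.9, 10.7 and 10.4 FPKM in cKO 1 to 4, and at 8.62, 8.85, 8.01 and 8.86 FPKM in controls 1 to 4 (log2 difference 0.33 ± 0.07 SE, limma adjusted p = 0.0758). Cstf2, a cleavage stimulation factor, averaged 12.1 ± 0.536 FPKM in cKO libraries and 8.83 ± 1.26 FPKM in control libraries (SD, n = 4 each, limma adjusted p = 0.0795). In both genes every cKO library lay above every control, as in 8 of the 19 tested genes of the list and 9.61% of all tested genes. With the GC and length correction the log2 differences were 0.16 for Casp8ap2 (adjusted p = 0.481) and 0.26 for Cstf2 (adjusted p = 0.427). Both passed limma with array quality weights, with a model term that separates libraries 1 and 2 of each group from 3 and 4 (the number term), and without cKO 2, and over the alternatives the adjusted p ranged from 0.0193 to 0.481 for Casp8ap2 and from 0.0204 to 0.427 for Cstf2.

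Of 14 genes of histone gene transcription and its cell-cycle control, 3 had an unadjusted p under 0.05 on the higher side and 0 on the lower, with a median of 0.18 (0.04 without controls 3 and 4 and 0.08 after the correction), beside the same 12.6% and 9.87% of all genes. Npat, the coactivator of the histone clusters, lay at 10.8, 11.2, 10.05 and 11.8 FPKM in cKO 1 to 4, and at 9.28, 9.11, 8.08 and 7.64 FPKM in controls 1 to 4, without overlap (limma adjusted p = 0.0834, 0.0426 to 0.574 over the alternatives). Ccne2, a cyclin whose kinase acts on Npat, lay at 11.6, 13.2, 12.2 and 12.2 FPKM in cKO 1 to 4, and at 8.74, 10.02, 10.7 and 10.6 FPKM in controls 1 to 4 (limma adjusted p = 0.104). With the GC and length correction its log2 difference went from 0.27 to 0.08 (limma adjusted p = 0.736). Of the 14 genes, 2 did not overlap on the higher side and 0 on the lower, beside 9.61% and 5.75% of all tested genes. Of 9 decay genes the counts were 3 and 0 (median 0.13, beside 12.6% and 9.87% of all genes), with Atr, a replication stress kinase, and Tut4, which adds uridines to RNA ends, at limma adjusted p of 0.0949 and 0.145. Ccne2 and Atr passed with weights, and Atr also without cKO 2.

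For chaperones, replication and mitosis genes the background was again 12.6% of all genes on the higher side and 9.87% on the lower. Log2 differences lay below 0 for 5 of 24, 7 of 34 and 0 of 20 genes. Of 24 chaperone and import genes 9 had an unadjusted p under 0.05 on the higher side and 0 on the lower (median 0.16), of 34 S-phase genes 6 and 0 (median 0.16), and of 20 G2 and mitosis genes 9 and 0 (median 0.27). Nap1l1, an H2A-H2B chaperone, averaged 103 ± 12.8 FPKM in cKO libraries and 74.0 ± 8.14 FPKM in control libraries, and Asf1a, an H3-H4 chaperone, 8.17 ± 1.08 and 6.003 ± 0.357 FPKM (SD, n = 4 each). Their limma adjusted p were 0.0812 and 0.0829, and 0.465 and 0.497 with the GC and length correction. Pola1, Cenpe and Hmmr, of replication, the kinetochore and the spindle, were each higher in cKO libraries, with limma adjusted p of 0.0951, 0.0758 and 0.0782. With the GC and length correction these were 0.460, 0.422 and 0.425. Pola1 averaged 8.60 FPKM in controls 1 and 2 and 5.81 FPKM in controls 3 and 4. Its log2 difference was 0.48, and 0.24 without controls 3 and 4. Nap1l1, Cenpe and Hmmr passed with weights, with the number term and without cKO 2, Asf1a with weights and Pola1 with the number term. Without controls 3 and 4 the medians were 0.01 for chaperones, -0.02 for S phase and 0.05 for mitosis, against -0.20 for the 10 histone genes. After the GC and length correction of all 8 libraries the 3 list medians were 0.12, 0.12 and 0.23.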

How the data were processed

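RNA of 8 whole small intestines was isolated with TRIzol and made into libraries with the NEBNext Ultra kit, per the labels' protocols. CASAVA, fastp, HISAT2, featureCounts, DESeq2 1.20.0 and the build GRCm39 are named in the submitters' processing notes, but the sources used here give no settings and no strand for them. A table with FPKM values was deposited by the authors for 55681 genes; 3 blank lines are not analysed here. Dividing length-scaled FPKM by the worth of 1 read gave whole reads for 100% of the values above 0, within 0.01.

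Log2(FPKM + 1) was fitted with limma 3.58.1 (R 4.3.3, trended prior variance) for the 14220 genes whose mean reached 1 FPKM, on cKO minus control, 2-sided, with Benjamini-Hochberg adjustment over all of them and a threshold of 0.05. The labels name no litter or batch, so p-values reflect only how these embryos vary. Code was tested on simulated data. Sums of reads were not tested. Transcript sequence, GC content and 50-base windows came from GENCODE M21 by gene identifier, and promoters from RefSeq, both on GRCm38; table coordinates are on GRCm39.

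Members and lists were chosen with earlier results of these data known. The genes named were the 3 highest tested of each family, the 6 of smallest p per direction, the extremes of each family, the tested replacement histones, and the 2 of smallest p of each other list. One gene that this rule names is not reported here. Others were chosen after their values were seen. Alternatives were the pseudocount, filter, scaling, weights, block, voom on recovered reads, GC and length correction, a term for the library numbers, coding genes only, and libraries left out. Overlapping genes cannot be told apart.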

Additional observations from a re-analysis of the deposited data

Results flagged for a closer look

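Of 88 groups of 4 libraries examined, 6 held a library far from the other 3, where chance gives about 4.4 (1 in 20). H2ac8 lay at 1.18 FPKM in cKO 3, below 1.97 to 2.06 FPKM in the other cKO libraries. In cKO 2, H2az1 lay at 199.6 FPKM (the others at 159 to 166), H2bu2 at 18.04 FPKM (9.48 to 9.66) and Nap1l1 at 121.9 FPKM (95.02 to 97.1). In control 1 the summed H2A genes took 2.86 RPM, below 4.63 to 4.92 in the other controls. The histone genes under 1 FPKM took 12.4 RPM in control 1, below 14.5 to 14.8.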

How the results depend on the processing

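Across 23 alternatives the number of tested histone genes passing stayed at 0, except 2 with array quality weights and 0 to 1 with a library left out (1 without cKO 2). The median log2 difference was -0.13 over the 47 histone genes that a filter at 0.1 FPKM let in, and -0.0851 over 56 with no filter. Over the 10 genes it was -0.31 with limma-voom and -0.0696 with the GC and length correction (with or without the replicate block). With a library left out it was -0.30 to -0.14. Over all genes, 2 calls became 0 with a pseudocount of 0.1, no filter, voom, the replicate block, or the block with GC correction. They became 1 with a filter at 0.1 FPKM or coding genes only, 31, 28 and 34 with median-ratio, summed-read and quantile scaling, 2209 with weights, 1099 with a term for numbers 1 and 2 against 3 and 4, and 0 to 1382 with a library left out (1382 without cKO 2). Same-numbered libraries correlated at 0.069, 0.326, 0.150 and 0.213, and 1 of them is under 0.1, so the numbers were not taken as pairs, although numbers 1 and 2 deviated apart from 3 and 4. The summed histone reads, with alternatives added after the data were seen, kept a log2 ratio of -0.28 to -0.21 with a library left out. The ratio was -0.36 for genes under 1 FPKM alone and -0.0768 without H2bc4, H4c9 and H1f2.

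Of 782 alternative values for 34 named genes, 27 passed the threshold with the same sign (12 with weights, 7 with the number term, 8 without cKO 2) and 40 turned sign, none of them past the threshold, and the cause was not tested. With the GC and length correction, alike with and without the block, H3c3 became 0.00639, H2bc8 0.0176, H1f10 0.13, H2ax 0.20, H3f3a -0.12 and H2bu2 0.11. With median-ratio, summed-read and quantile scaling H1f0 became -0.0164, -0.0637 and -0.0041, and Macroh2a2 -0.0216, -0.0675 and -0.0510; with summed reads H3f3a became -0.0468. With weights H1f0, Macroh2a2 and H3f3a became -0.15, -0.23 and -0.0354, and with voom H1f0 and Macroh2a2 -0.0144 and -0.0183. Without controls 3 and 4, H1f0, Macroh2a1, Macroh2a2 and H3f3a became -0.28, -0.0560, -0.27 and -0.0159. With 1 library left out, H1f0 ranged from -0.0947 to 0.10, H2ax from -0.25 to 0.0519, Macroh2a2 from -0.16 to 0.10, H3f3a from -0.0315 to 0.0577 and H2bu2 from -0.33 to 0.00982. At these depths a gene of 1 kilobase at 1 FPKM rests on 15.8 to 18.1 reads, so most histone genes are limited by counting error.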
